A study of Sus scrofa with 60 samples.

Results

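Hepcidin, the liver hormone that governs body iron, is encoded by HAMP, and it was read here together with the genes that set its level and carry out its effect. The set held 9 of the 30335 named genes in the count table: HAMP, its upstream signals BMP6 and BMP2, the regulators TFR2, HFE and TMPRSS6, the hormone's target SLC40A1, the plasma iron carrier TF and its receptor TFRC. The set was chosen by the level of HAMP in these same libraries, which was low in parenterally fed pigs, so the diet differences of HAMP are given below as a description with no test. The other 8 were picked for their part in hepatic iron control, with earlier results of these data known, and were tested in a fit across all genes. All 9 passed the filter on low counts, HAMP through its level in enterally fed pigs.

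Hepcidin is secreted by hepatocytes and binds ferroportin, the only known exporter of iron from cells, which is then internalised and degraded, so that less iron enters plasma from the gut and from macrophages. Its transcription rises with iron: sinusoidal endothelial cells release BMP6 and BMP2, which act on hepatocyte BMP receptors with the coreceptor hemojuvelin and drive SMAD proteins onto the HAMP promoter, while HFE and TFR2 relay the saturation of transferrin and the protease matriptase-2 restrains the pathway. Inflammation raises hepcidin through IL-6 and STAT3, and growing demand from red cell precursors lowers it.

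Liver RNA came from 60 neonatal pigs of both sexes, born slightly preterm by cesarean to sows of mixed Landrace and Hampshire breeding, with tissue collected on day 14. Each pig had either bile duct ligation (BDL), in which the cystic and common ducts were tied to block bile flow, or a sham operation limited to an incision and brief handling of the liver. Each was then fed enterally with formula by orogastric tube (ENT) or received only parenteral nutrition (PN) through a jugular catheter, with calories matched, and the PN carried either the soy lipid emulsion Intralipid (SLE) or the mixed emulsion SMOFlipid (MLE). All pigs, the ENT pigs included, were started on PN after surgery, and ENT pigs were moved to full feeds over the first week. Groups are named by diet and operation: ENT-sham held 12 pigs and ENT-BDL 10, SLE-sham 10 and SLE-BDL 11, and MLE-sham 9 and MLE-BDL 8, so that 22 pigs were enterally and 38 parenterally fed. The SLE and MLE pigs of an operation were compared with the same ENT pigs. Neither the iron given by each route nor a measure of iron status is stated in the sources used here, and enteral feeding, its iron and the absence of gut feeding on PN cannot be told apart.

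Libraries held 14469788 to 21374161 counts, with a median of 17254606. ENT-BDL replicate 1 and ENT-sham replicate 2 stood apart as a pair: the chi-square of their counts was 1.87 per degree of freedom, against 15.0 for the next closest of 1770 library pairs and a median of 80.2, although the labels put them under different operations. HAMP was 46.3 and 44.7 CPM in them, BMP6 13.2 and 14.8 CPM, TFRC 22.0 and 21.3 CPM and TF 20100 and 19800 CPM. Fitted ENT differences of the members and named genes are therefore also given, or counted in the closing section, without both. Ranges, medians, marker sums, counts per gene list, shares of all genes and correlations include both. The 60 libraries carry 59 pig identifiers, since 1 identifier is given for both replicate 9 and replicate 10 of SLE-sham, so that group may hold 9 pigs. Both were fitted as separate samples, counted as pigs in every n here, and left out in turn. CPM is the usual read count normalised to depth, taken here on library sizes scaled by TMM.

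HAMP (chromosome 6, 44785863 to 44787303, Sscrofa11.1) was expressed in every ENT pig and was close to absent in PN pigs, with either emulsion and after either operation. In ENT-sham pigs it ranged from 39.9 CPM to 269 CPM with a median of 116 CPM, and in ENT-BDL pigs from 34.1 to 127 CPM with a median of 73.1 CPM. In SLE-sham pigs it ranged from 0.0538 to 2.53 CPM with a median of 0.352 CPM, and in SLE-BDL pigs from 0 to 3.40 CPM with a median of 0.449 CPM. In MLE-sham pigs it ranged from 0 to 1.95 CPM with a median of 0.257 CPM, and in MLE-BDL pigs from 0.052 to 1.51 CPM with a median of 0.904 CPM. The 22 ENT and 38 PN pigs did not overlap: the lowest ENT pig was at 34.1 CPM and the highest PN pig at 3.40 CPM.

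In counts, HAMP had 482 to 4652 in ENT pigs and 0 to 51 in PN pigs. Of the 38 PN pigs, 10 were at 3 counts or fewer, of which 2 were at 0, so that a level in PN pigs rests on few counts and the fitted folds below are rough. The fitted log2 difference was -7.66 for SLE against ENT and -7.90 for MLE against ENT in sham pigs, and -6.74 and -6.56 in BDL pigs. In each of these 4 comparisons it was the lowest log2 difference among the 16210 genes tested, which is the property the gene was picked for. Without the pair of near-matching ENT libraries the 4 values were -7.74, -7.99, -6.80 and -6.62. The number in the pig identifiers, whose meaning is not stated, was shared by pigs of different groups. The numbers that held both diets were 4 for SLE and 2 for MLE in sham pigs, and 5 and 3 in BDL pigs. HAMP was lower on PN in all of them, which had to follow from the gap between the diets. Each MLE group held 4 numbers, and those shared with ENT pigs of the same operation held 1 ENT pig each. Diet and number are thus partly confounded for MLE, and values with the number as a block carry that limit.

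**Figure D1:**
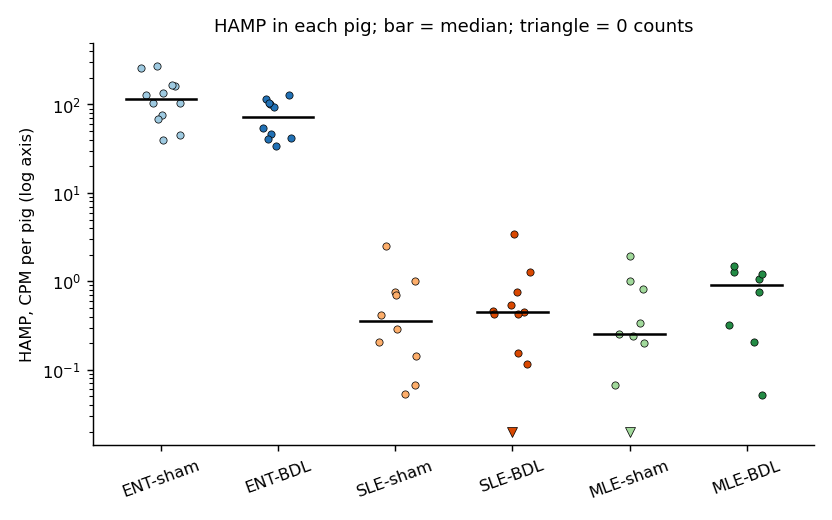
HAMP in each of the 60 pigs by group, as CPM on a log axis. Points are pigs, bars are group medians and triangles mark pigs with 0 counts, drawn at the foot of the axis. All 22 ENT pigs lie at or above 34.1 CPM and all 38 PN pigs at or below 3.40 CPM.

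Between operations, HAMP could be compared well only in ENT pigs. On enteral feeding it averaged 75.6 ± 35.5 CPM (SD, n = 10) after BDL and 130 ± 74.8 CPM (SD, n = 12) after sham surgery, a log2 difference of -0.78 with an SE of 0.35 and a 95% interval of -1.46 to -0.09, which did not pass over all genes (adjusted p = 0.114, edgeR). Without the near-matching pair it was -0.80 (adjusted p = 0.1, edgeR), and HAMP was lower after BDL in 5 of 6 identifier numbers. The groups overlapped between 39.9 and 127 CPM, with 5 of 12 sham pigs above every BDL pig and 1 of 10 BDL pigs below every sham pig. On SLE the fitted difference was 0.14 (95% interval -1.07 to 1.36) and on MLE 0.57 (95% interval -0.76 to 1.90). HAMP passed the filter on low counts through ENT pigs, and at the 0 to 51 counts of PN pigs those intervals allow differences of over 2-fold either way on SLE and upward on MLE, so that an effect of BDL on PN was not detectable at this depth. MLE and SLE pigs differed in HAMP by a log2 value of 0.18 (SE 0.62) after BDL and -0.25 (SE 0.69) after sham surgery.

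Per kilobase of transcript, HAMP moved from the upper to the lower end of the set. In ENT-sham pigs the mean levels were 7290 CPM per kb for TF, 325 for HAMP, 273 for TFR2, 201 for SLC40A1, 88.4 for TMPRSS6, 16.0 for TFRC, 9.44 for HFE, 8.35 for BMP6 and 1.60 for BMP2. HAMP at 325 ± 187 and TFR2 at 273 ± 41.6 CPM per kb (SD, n = 12) did not differ beyond their spread, nor did HFE at 9.44 ± 1.68 and BMP6 at 8.35 ± 2.13. In SLE-sham pigs HAMP was at 1.55 ± 1.87 CPM per kb (SD, n = 10), beside BMP2 at 1.63 ± 0.321 and below the other 7 members. Without SLE-sham replicate 6 the HAMP mean was 1.02 ± 0.865 CPM per kb (SD, n = 9). TFRC, at 46.4 CPM per kb there, remained between TMPRSS6 at 95.9 and HFE at 6.87.

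Of the 8 other members, 5 passed the test between SLE-sham and ENT-sham pigs (27.5% of all genes passed there) and 5 between MLE-sham and ENT-sham pigs (21.1% of all genes). In BDL pigs 2 passed on SLE (19.6% of all genes) and 3 on MLE (16.8%). BMP6 and TFRC were the members that passed with more than 2-fold in all 4 comparisons, and they moved in opposite directions. They were 2 of the 8 in each, where 5.24% of all genes passed with over 2-fold for SLE and 3.71% for MLE in sham pigs, and 3.13% and 3.18% in BDL pigs. Between MLE and SLE none of the 8 passed, by edgeR, in BDL pigs (0.907% of all genes) or in sham pigs (0.999%). At an unadjusted p under 0.05 the counts were 4 and 1, and DESeq2 passed 1 and 0. With over 2-fold also asked, 0.37% and 0.463% of all genes passed. The median log2 difference of the 8 members lay between -0.13 and 0.20 in the 4 PN against ENT comparisons, and that of all genes between -0.01 and 0.01.

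BMP6 (chromosome 7, 5058817 to 5208868), the main iron-induced ligand that drives HAMP, was lower in PN pigs with either emulsion. It ranged from 8.27 to 19.6 CPM with a median of 13.1 CPM in ENT-sham pigs and from 6.23 to 22.4 CPM with a median of 12.8 CPM in ENT-BDL pigs. On SLE the medians were 4.89 CPM after sham surgery (2.88 to 9.01) and 5.47 CPM after BDL (3.47 to 9.35), and on MLE 5.02 (2.81 to 8.60) and 4.06 CPM (2.72 to 8.94). The diets overlapped only at the margin: 19 of 22 ENT pigs were above every PN pig.

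BMP6 fell by 1.41 on the log2 scale (SE 0.20, adjusted p = 1.41e-07) on SLE and by 1.46 (SE 0.21, adjusted p = 3.17e-07) on MLE in sham pigs, tested with edgeR over all genes. In BDL pigs it fell by 1.15 (SE 0.20, adjusted p = 1.78e-05) on SLE and by 1.58 (SE 0.22, adjusted p = 4.69e-07) on MLE, in the same edgeR fit. It was lower on PN in each identifier number that held both diets, for SLE and MLE. The numbers were 4 of 4 and 2 of 2 in sham and 5 of 5 and 3 of 3 in BDL pigs. For MLE each of them held 1 ENT pig. Without the near-matching pair of ENT libraries the values lay between -1.59 and -1.15. Operation made no detectable difference to BMP6, with log2 differences of -0.03 on ENT, 0.22 on SLE and -0.15 on MLE and intervals that together ran from -0.60 to 0.61.

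BMP2 (chromosome 17, 15750487 to 15762982), the other endothelial ligand, which holds basal HAMP expression, passed in none of the 9 comparisons between groups. Its medians ran from 6.79 CPM in ENT-sham to 8.29 CPM in MLE-BDL pigs, and every group overlapped every other. The widest log2 difference, 0.31 for MLE against ENT in BDL pigs, had a 95% interval of -0.03 to 0.64.

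Both ligands come mainly from endothelial cells, and in whole liver fewer cells of a type and less RNA per cell cannot be told apart. The summed level of 9 sinusoidal endothelial markers had medians, sham then BDL, of 1290 and 1120 CPM on ENT, 1100 and 1130 CPM on SLE and 1160 and 950 CPM on MLE. The ranges were 734 to 1860 CPM over ENT and 422 to 1520 CPM over PN pigs, and no marker of the 9 was at 3 counts or fewer in every pig of a group. None of the 9 was higher on PN past the test, and 1, 0, 0 and 1 were lower for SLE and MLE in sham and SLE and MLE in BDL pigs, where 13.6%, 10.4%, 9.17% and 8.27% of all genes were lower. The median log2 difference of these markers lay between -0.29 and -0.07 in the 4 comparisons, and their part in the BMP6 values was not tested.

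**Figure D2:**
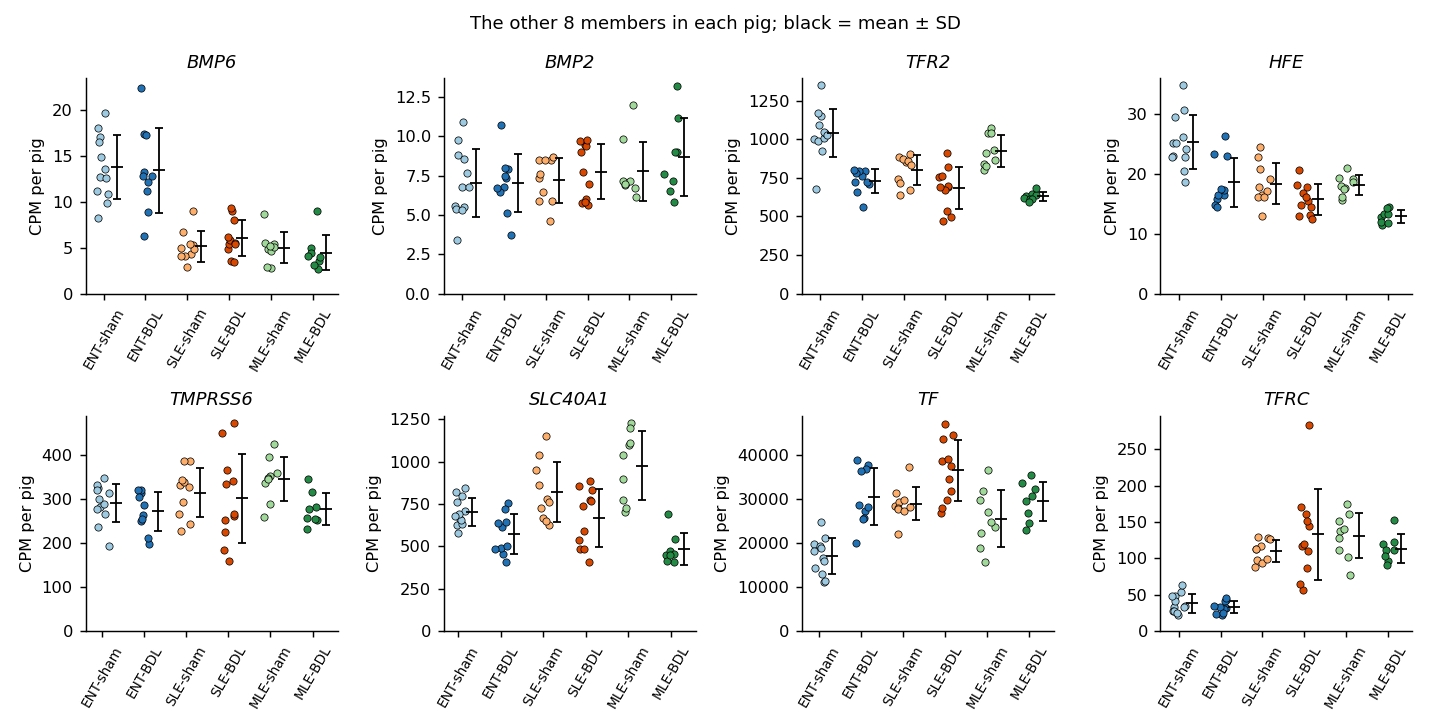
The 8 other members in each of the 60 pigs, as CPM on linear axes that start at 0. Points are pigs and the black marks beside them are the group mean ± SD. BMP6 is low and TFRC high in the 4 PN groups, and SLC40A1 is lowest in MLE-BDL pigs.

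The sensors of transferrin saturation moved less and followed operation as well as diet. TFR2 (chromosome 3, 8539316 to 8553993, minus strand), the transferrin receptor that hepatocytes use as a sensor, had a median of 1030 CPM in ENT-sham (679 to 1350) and 742 CPM in ENT-BDL pigs (562 to 803). On SLE the medians were 842 CPM after sham surgery (636 to 906) and 693 CPM after BDL (473 to 908), and on MLE 908 (800 to 1070) and 624 CPM (591 to 686). MLE-sham and MLE-BDL pigs did not overlap, while the ENT groups overlapped through 1 ENT-sham pig, replicate 2 of the near-matching pair. TFR2 fell after BDL by 0.51 on the log2 scale (SE 0.09, adjusted p = 3.71e-05) on ENT and by 0.56 (SE 0.10, adjusted p = 9.21e-05) on MLE, and was -0.23 (SE 0.09, adjusted p = 0.147) on SLE, all from edgeR. Without the near-matching pair the ENT value was -0.56. Among diets TFR2 fell for SLE against ENT in sham pigs by 0.38 (SE 0.09, adjusted p = 0.000754, edgeR). It was -0.17 for MLE in sham pigs and -0.10 for SLE and -0.21 for MLE in BDL pigs, which did not pass (adjusted p 0.191, 0.483 and 0.132, edgeR), and the MLE values were below 0 in 2 of 2 and 3 of 3 identifier numbers.

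HFE (chromosome 7, 20758604 to 20767004), which binds transferrin receptors and relays iron status to the BMP pathway, was highest in ENT-sham pigs, with a median of 24.7 CPM (18.6 to 34.8), and lowest in MLE-BDL pigs, at 13.0 CPM (11.5 to 14.4). The other 4 medians lay at or above 15.4 CPM, between those of these groups. The MLE-BDL range lay wholly below those of MLE-sham and ENT-BDL pigs. HFE fell after BDL by 0.44 (SE 0.10, adjusted p = 0.000965) on ENT and by 0.49 (SE 0.11, adjusted p = 0.00196) on MLE, and was -0.23 (SE 0.10, adjusted p = 0.211) on SLE, by edgeR. It fell on PN by 0.46 for SLE and 0.48 for MLE in sham pigs and by 0.52 for MLE in BDL pigs, and was -0.24 for SLE in BDL pigs (adjusted p 0.000335, 0.000403, 0.000536 and 0.0901, edgeR). Leaving out SLE-BDL replicate 7 took that last value to -0.29 and past the test (adjusted p = 0.0374, edgeR), as did the identifier number as a block (-0.29, adjusted p = 0.0436, edgeR).

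TMPRSS6 (chromosome 5, 10663491 to 10704583), which encodes matriptase-2, the protease that cleaves hemojuvelin and holds HAMP down, passed in none of the 9 comparisons in the fit without a block. Its medians lay between 266 and 347 CPM in the 6 groups, with the widest spread in SLE-BDL pigs, from 159 to 473 CPM. The largest difference, -0.32 for BDL against sham on MLE, had a 95% interval of -0.59 to -0.04 and an adjusted p of 0.129 by edgeR. It passed at -0.33 with the identifier number as a block (adjusted p = 0.0431, edgeR) and with the MLE groups alone (adjusted p = 0.023, edgeR), and was lower in 4 of 4 identifier numbers.

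BDL in enterally fed pigs changed 3 of the 8 other members past the test (17.4% of all genes passed), with TFR2 and HFE lower and TF higher, none by over 2-fold (3.39% of all genes). On MLE 3 passed (14.4% of all genes), all lower: TFR2, HFE and, by over 2-fold (3.78% of all genes), SLC40A1. On SLE none of the 8 passed by edgeR (4.54% of all genes), with 4 at an unadjusted p under 0.05, none by DESeq2 and none by over 2-fold (1.49% of all genes). The hepatocyte markers, which share their main cell of origin with TFR2, moved with the operation: 4 of 8 were lower after BDL on ENT, 5 of 8 on MLE and none on SLE, where 8.53%, 6.58% and 1.57% of all genes were lower. Their sum had medians of 94300 CPM in ENT-sham (43700 to 113000) and 56700 in ENT-BDL pigs (43700 to 81800). On SLE they were 72900 CPM in sham (62300 to 88700) and 63000 in BDL pigs (43000 to 87100), and on MLE 80300 (64200 to 110000) and 51200 CPM (41000 to 57900). Between diets 3 of the 8 were lower for SLE and 2 for MLE in sham pigs (13.6% and 10.4% of all genes), with medians of -0.26 and 0.02, and in BDL pigs 1 was higher and 1 lower for SLE (10.4% and 9.17% of all genes) and 0 and 1 for MLE (8.53% and 8.27%), with medians of 0.03 and -0.13. Their part in the TFR2 and HFE values was not tested.

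SLC40A1 (chromosome 15, 94140635 to 94161793, minus strand), which encodes ferroportin, the iron exporter that hepcidin removes, was lowest in MLE-BDL pigs. It ranged from 406 to 690 CPM there with a median of 452 CPM, against 702 to 1230 CPM with a median of 1040 CPM in MLE-sham pigs, and the groups did not overlap. In ENT pigs the medians were 683 CPM after sham surgery (578 to 844) and 561 CPM after BDL (408 to 759), and in SLE pigs 773 (629 to 1150) and 737 CPM (409 to 888). The sham and BDL pigs overlapped on both of those diets.

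SLC40A1 fell after BDL on MLE by 1.01 (SE 0.14, adjusted p = 1.79e-06, edgeR), and the value was -0.30 both on ENT (SE 0.13, adjusted p = 0.0887) and on SLE (SE 0.13, adjusted p = 0.182). Both of these passed with the identifier number as a block, at -0.31 on ENT (adjusted p = 0.0347, edgeR) and -0.40 on SLE (adjusted p = 0.0412, edgeR), and SLC40A1 was lower after BDL in 6 of 6 numbers on ENT, 3 of 4 on SLE and 4 of 4 on MLE. Whether these effects differed was tested by the interaction, the BDL effect on one diet minus that on the other: it was -0.71 for MLE against ENT (SE 0.19, adjusted p = 0.125) and -0.71 for MLE against SLE (SE 0.19, adjusted p = 0.0861) by edgeR, so neither passed. The first passed with the identifier number as a block (-0.66, adjusted p = 0.0465, edgeR) and with its 4 groups alone (-0.72, adjusted p = 0.0491, edgeR). The second passed by DESeq2 (-0.72) and, in edgeR, without any 1 of 5 pigs: SLE-BDL replicate 9 (-0.76), MLE-sham replicate 6 (-0.77), SLE-BDL replicate 6 (-0.77), MLE-BDL replicate 8 (-0.80) or SLE-sham replicate 9 (-0.79). None of the 8 members passed any of the 3 interaction tests by edgeR (2.33% of all genes for SLE against ENT, 0.0617% for MLE against ENT and 0.265% for MLE against SLE), with 2 in each at an unadjusted p under 0.05 and 0, 0 and 1 by DESeq2. Over 2-fold, 1.06%, 0.0247% and 0.197% of all genes passed these 3.

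Among diets, SLC40A1 rose for MLE against ENT in sham pigs by 0.47 (SE 0.13, adjusted p = 0.00515, edgeR). For MLE against SLE in BDL pigs it was -0.46 (SE 0.14, adjusted p = 0.0855, edgeR), which passed without SLE-BDL replicate 6 (-0.53) or MLE-BDL replicate 8 (-0.55). Kupffer cells, the liver macrophages, carry much of the liver's ferroportin. The summed level of 9 Kupffer markers had medians of 1400 CPM in MLE-sham (1180 to 1990) and 1040 CPM in MLE-BDL pigs (907 to 1460), with 3 lower and 1 higher past the test, and of 1810 (1000 to 2240) and 1280 CPM (1040 to 1640) in ENT-sham and ENT-BDL pigs, with 2 lower and 1 higher. In SLE pigs they were 1510 (1090 to 1860) and 1170 CPM (1060 to 1370), with 0 lower and 1 higher. Of all genes, 6.58% were lower and 7.85% higher after BDL on MLE, 8.53% and 8.89% on ENT and 1.57% and 2.97% on SLE. Their part in the SLC40A1 values was not tested.

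TF, which encodes transferrin, was among the most abundant messages and was lowest in ENT-sham pigs. It ranged from 11200 to 24700 CPM there with a median of 17400 CPM, and the median was 28500 CPM in ENT-BDL pigs (20100 to 39000). On SLE the medians were 28400 CPM after sham surgery (22000 to 37400) and 37600 CPM after BDL (26800 to 47200), and on MLE 24700 (15800 to 36600) and 30100 CPM (22900 to 35500). SLE-BDL pigs lay wholly above ENT-sham pigs, and the lowest ENT-BDL pig was replicate 1 of the near-matching pair. TF rose after BDL on ENT by 0.84 (SE 0.13, adjusted p = 3.78e-06) and on PN in sham pigs by 0.77 for SLE (SE 0.13, adjusted p = 5.16e-06) and 0.59 for MLE (SE 0.13, adjusted p = 0.000727), by edgeR. The first was 0.91 without the near-matching pair, and the last held in 1 of 2 identifier numbers. After BDL, TF was 0.34 on SLE (SE 0.13, adjusted p = 0.14) and 0.20 on MLE (SE 0.15, adjusted p = 0.384), by edgeR. Neither passed, and TF was higher in 4 of 4 and 3 of 4 identifier numbers. In BDL pigs TF was 0.26 for SLE and -0.05 for MLE against ENT, neither past the test.

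A neighbouring gene with the same symbol on the same strand of chromosome 13, at 74862502 to 74907059 against 74930655 to 74970599 for TF in Sscrofa11.1, could share reads with it, and TF is uncertain for that reason. The neighbour held 604 to 893 CPM in the group means. Where TF passed, the neighbour rose as well for MLE against ENT in sham pigs, by 0.44 (adjusted p = 0.00052, edgeR), and was 0.07 for SLE against ENT in sham pigs and 0.04 after BDL on ENT (adjusted p = 0.629 and 0.8, edgeR). It fell by 0.57 after BDL on MLE (adjusted p = 0.000144, edgeR), where TF was 0.20.

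TFRC (chromosome 13, 133976765 to 133997554), the receptor that brings transferrin-bound iron into cells and whose message is stabilised when cell iron is low, was higher in PN pigs. It ranged from 21.3 to 63.2 CPM with a median of 34.0 CPM in ENT-sham pigs and from 22.0 to 45.1 CPM with a median of 32.7 CPM in ENT-BDL pigs. On SLE the medians were 113 CPM after sham surgery (88.3 to 129) and 119 CPM after BDL (56.0 to 283), and on MLE 137 (76.8 to 174) and 111 CPM (90.6 to 153). Of the 38 PN pigs, 37 lay above every ENT pig, and the exception was the SLE-BDL pig at 56.0 CPM.

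TFRC rose in sham pigs by 1.54 (SE 0.18, adjusted p = 1.31e-09) on SLE and by 1.79 (SE 0.18, adjusted p = 7.97e-11) on MLE, by edgeR. In BDL pigs it rose by 2.02 (SE 0.19, adjusted p = 1.73e-11) on SLE and by 1.79 (SE 0.20, adjusted p = 1.83e-09) on MLE, by edgeR. Neither BDL nor the choice of emulsion changed it past the test, with log2 differences from -0.23 to 0.27. All 4 diet values also passed with the identifier number as a block, the lowest at 1.51, and lay between 1.48 and 1.97 without the pair of near-matching libraries.

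**Figure D3:**
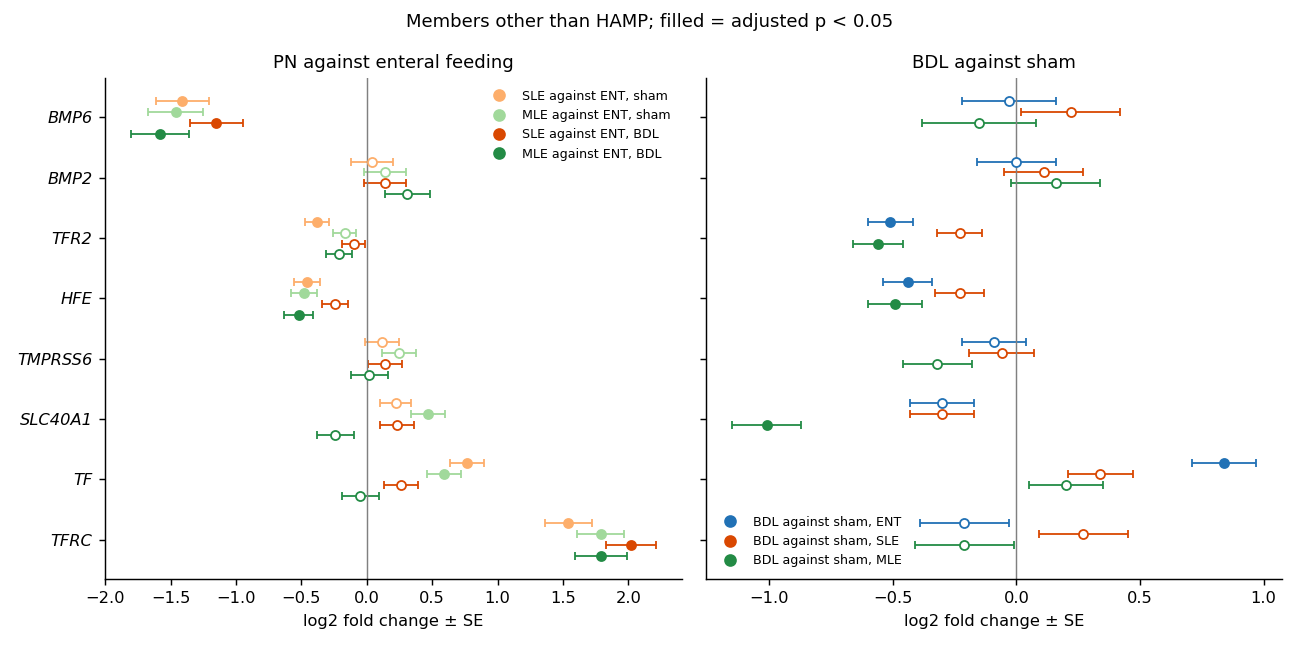
Log2 fold change ± SE (horizontal axis) of the 8 members other than HAMP for PN against ENT (left) and BDL against sham (right), from the fit over all 60 pigs. Filled points passed at an adjusted p under 0.05. TFRC lies between 1.54 and 2.02 and BMP6 between -1.58 and -1.15 in the left panel, and SLC40A1 reaches -1.01 on MLE in the right panel.

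Red cell precursors, which the newborn liver still holds, express TFRC strongly, so their markers were set beside it. Of 11 erythroid markers, none was higher on PN past the test in any of the 4 comparisons, and 2, 2, 1 and 5 were lower for SLE and MLE in sham and SLE and MLE in BDL pigs, where 13.6%, 10.4%, 9.17% and 8.27% of all genes were lower. Their summed level had medians of 1160 CPM in ENT-sham (486 to 2500) and 1160 CPM in ENT-BDL pigs (347 to 3920). On SLE the medians were 456 CPM after sham surgery (230 to 859) and 571 CPM after BDL (132 to 1440), and on MLE 534 (442 to 857) and 222 CPM (142 to 521). Without HBB the sum of the other 10 had medians, sham then BDL, of 38.6 and 73.6 CPM on ENT, 37.9 and 54.7 CPM on SLE and 30.0 and 20.6 CPM on MLE. The part of these markers in the TFRC values was not tested.

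HBB, the beta-globin gene that makes up most of that sum, fell on PN by 1.43 for SLE and 1.12 for MLE in sham pigs and by 1.12 for SLE and 2.33 for MLE in BDL pigs (adjusted p 0.000816, 0.0141, 0.0121 and 1.41e-05, edgeR). The SLE value in BDL pigs missed the test without ENT-BDL replicate 5, and the MLE value in sham pigs missed it with the identifier number as a block (-0.71, adjusted p = 0.126, edgeR). No erythroid marker was at 3 counts or fewer in every pig of a group.

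**Figure D4:**
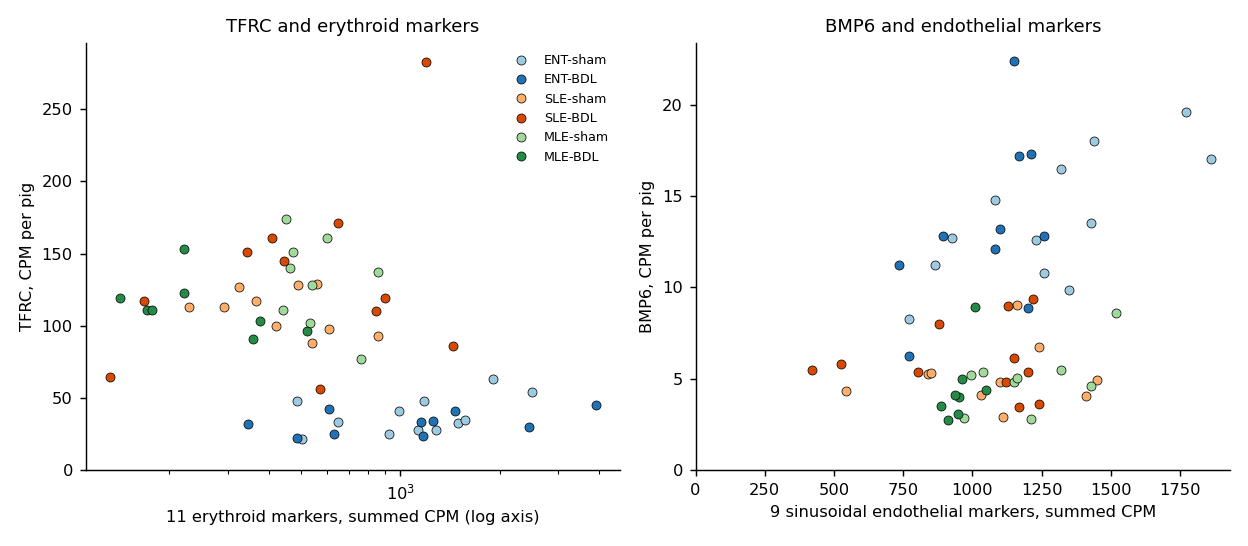
TFRC against the summed level of 11 erythroid markers (left, log horizontal axis) and BMP6 against that of 9 sinusoidal endothelial markers (right), 1 point per pig, all in CPM. In TFRC 37 of 38 PN pigs lie above every ENT pig, and in BMP6 19 of 22 ENT pigs lie above every PN pig, while the ranges of both marker sums overlap between diets (erythroid 347 to 3920 CPM on ENT and 132 to 1440 CPM on PN).

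Downstream of the BMP receptors, genes that SMAD proteins switch on were lower in PN pigs after sham surgery. Of 7 such genes, 6 passed as lower for SLE and 5 for MLE against ENT in sham pigs, where 13.6% and 10.4% of all genes were lower, and none was higher. The median of the 7 was -0.43 and -0.60, against -0.01 for all genes in both. In BDL pigs 1 and 2 of 7 were lower, where 9.17% and 8.27% of all genes were, with medians of -0.24 and -0.06. None of the 7 passed an interaction test, by edgeR.

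ATOH8, a transcription factor that responds to BMP signals and iron and acts on HAMP, showed the largest changes of the 7 for PN against ENT. It averaged 13.8 ± 5.29 CPM in ENT-sham (SD, n = 12) and 8.95 ± 1.54 in ENT-BDL pigs (SD, n = 10), and 3.31 to 4.22 CPM in the 4 PN groups. It fell by 2.06 on SLE and 1.71 on MLE in sham pigs and by 1.37 and 1.16 in BDL pigs (adjusted p 7.44e-13, 7.86e-10, 1.14e-07 and 2.65e-05, edgeR). Of the 4 comparisons, the groups overlapped in that of MLE-sham with ENT-sham pigs.

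ID1, a direct SMAD target, fell in sham pigs by 0.93 on SLE and by 0.74 on MLE (adjusted p = 8.61e-05 and 0.0028, edgeR), the second missing the test with the identifier number as a block (adjusted p = 0.121, edgeR). In BDL pigs ID1 was -0.24 and 0.00. BDL itself lowered ID1 on ENT by 0.86 and ATOH8 by 0.63 (adjusted p = 0.000559 and 0.00796, edgeR), so the ENT-BDL pigs, with which PN was compared there, already held less of both. ID2 fell by 0.70 on SLE and 0.82 on MLE in sham pigs and by 0.64 on MLE in BDL pigs (adjusted p 0.000281, 8.11e-05 and 0.00451, edgeR).

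Of 9 genes for BMP receptors, coreceptors and SMADs, 1 was higher and 4 lower on SLE and 1 and 3 on MLE in sham pigs, with 1 and 3 on SLE and 2 and 3 on MLE in BDL pigs. Of all genes, 13.9% were higher and 13.6% lower on SLE and 10.7% and 10.4% on MLE in sham pigs, and 10.4% and 9.17% on SLE and 8.53% and 8.27% on MLE in BDL pigs. The medians of the 9 lay between -0.24 and -0.07. HJV, which encodes hemojuvelin, went the other way from HAMP: it averaged 106 ± 22.4 CPM in ENT-sham and 160 ± 25.2 CPM in SLE-sham pigs (SD, n = 12 and 10). HJV rose on SLE by 0.59 in sham and 0.52 in BDL pigs (adjusted p = 0.00013 and 0.00198, edgeR). On MLE the values were 0.45 and 0.39, which passed but missed the test with the identifier number as a block (0.32 and 0.25, adjusted p = 0.143 and 0.302, edgeR). The value in BDL pigs missed it also with no filter, without the near-matching pair, with its groups alone and without any 1 of 11 pigs. ACVR1, a type I receptor of the pathway, fell on SLE by 0.55 and 0.51 (adjusted p = 0.00177 and 0.00585, edgeR), and its MLE values of -0.42 and -0.47 also missed the test with that block (-0.41 and -0.44, adjusted p = 0.0885 and 0.0905, edgeR). ACVR1 missed it besides with the replicate block, its groups alone or without any 1 of 6 pigs in sham pigs, and without the near-matching pair or any 1 of 4 pigs in BDL pigs.

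**Figure D5:**
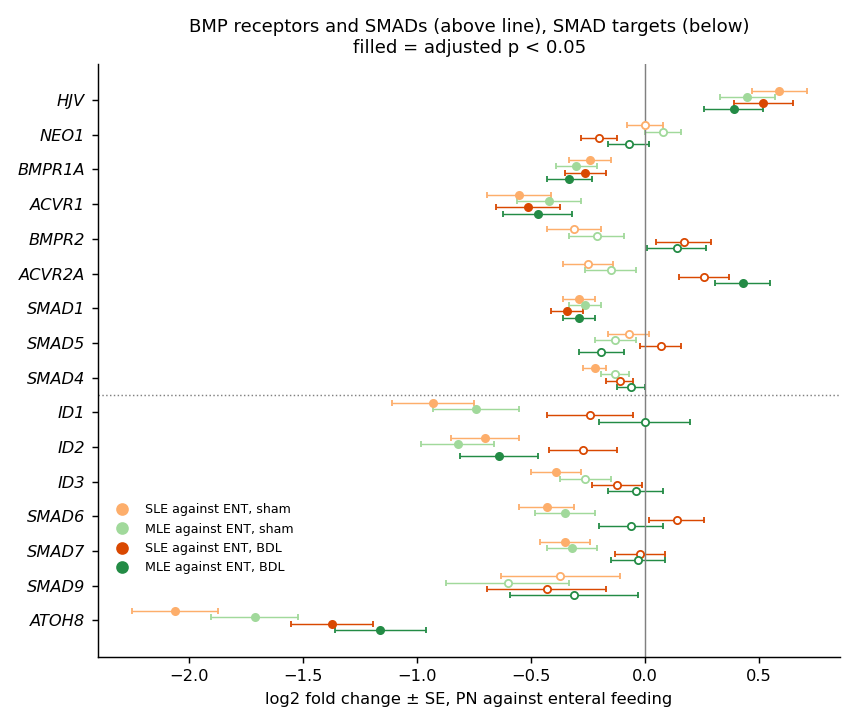
Log2 fold change ± SE of 9 BMP receptor and SMAD genes (above the dotted line) and 7 SMAD target genes (below it) for PN against ENT. Filled points passed at an adjusted p under 0.05. ATOH8 lies between -2.06 and -1.16, and HJV lies between 0.39 and 0.59.

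The inflammatory arm of hepcidin control was read through acute-phase and signalling genes. Of 11 measured genes of the IL-6 and STAT3 arm, 2 were higher and 5 lower on SLE in sham pigs, 1 and 1 on MLE in sham pigs, 4 and 1 on SLE in BDL pigs and 0 and 1 on MLE in BDL pigs. In these comparisons 13.9% of all genes were higher and 13.6% lower, then 10.7% and 10.4%, 10.4% and 9.17%, and 8.53% and 8.27%. After BDL 1 was higher and 5 lower on ENT, 1 and 0 on SLE and 0 and 5 on MLE, where 8.89% and 8.53%, 2.97% and 1.57%, and 7.85% and 6.58% of all genes were. Between MLE and SLE in BDL pigs 0 were higher and 6 lower, where 0.216% and 0.691% of all genes were. IL6 itself was below the filter on low counts. HP, the acute-phase protein haptoglobin, averaged 8260 ± 3370 CPM in ENT-sham and 4160 ± 1540 CPM in ENT-BDL pigs (SD, n = 12 and 10), and 6410 ± 2870 and 2460 ± 650 CPM in MLE pigs (SD, n = 9 and 8). It fell after BDL by 0.99 on ENT and by 1.38 on MLE (adjusted p = 0.00834 and 0.00146, edgeR). In SLE pigs HP averaged 3980 ± 1360 CPM after sham surgery and 7620 ± 5660 CPM after BDL (SD, n = 10 and 11). That difference of 0.94 (adjusted p = 0.0399, edgeR) missed the test without any 1 of 10 pigs. It missed it also with the identifier number as a block, no filter, its groups alone or without SLE-sham replicate 10. For SLE against ENT, HP was -1.05 in sham pigs and 0.87 in BDL pigs, both past the test. The value in BDL pigs missed it with that block, its groups alone or without any 1 of 2 pigs. The part of these genes in the HAMP values was not tested.

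Of 6 hormones and secreted factors described as hepcidin suppressors, 2 were higher on SLE and 2 on MLE in BDL pigs, with 0 and 1 lower. In sham pigs 1 was higher and 1 lower on SLE, and 0 and 2 on MLE. The shares of all genes that were higher were 10.4% and 8.53% in BDL pigs and 13.9% and 10.7% in sham pigs, and those lower 9.17% and 8.27%, and 13.6% and 10.4%. GDF15, a stress-induced cytokine, ranged from 0.388 to 1.61 CPM in ENT-BDL, 1.04 to 58.0 CPM in SLE-BDL (median 3.29) and 2.86 to 7.12 CPM in MLE-BDL pigs. GDF15 rose in BDL pigs by 3.22 on SLE and by 2.53 on MLE (adjusted p = 8.25e-07 and 0.000108, edgeR). Without SLE-BDL replicate 9, the pig at 58.0 CPM, the SLE value was 1.77 (adjusted p = 2.38e-06, edgeR). EPO, the hormone that drives red cell production, lay below the level set for naming genes and was chosen after its values were seen. Its p-values do not allow for that choice, and its folds are rough at these levels. It was 0 to 0.344 CPM in ENT-BDL and 0.470 to 22.5 CPM in SLE-BDL pigs (median 1.14), with no overlap. The rise was 4.76 (SE 0.64, adjusted p = 1.23e-07, edgeR), or 3.96 without SLE-BDL replicate 5 (adjusted p = 8.04e-07, edgeR). On MLE the EPO values against ENT were 1.92 in BDL pigs and -2.09 in sham pigs, both past the test. The first missed it with no filter, without the near-matching pair or without any 1 of 13 pigs. The second missed it with the identifier number as a block or without any 1 of 6 pigs. PDGFA rose after BDL by 1.15 on ENT, 0.91 on SLE and 1.01 on MLE (adjusted p 0.000246, 0.0166 and 0.00505, edgeR).

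Among genes of iron storage, FTH1 rose and NCOA4 fell on PN with either emulsion and operation. FTH1, the heavy chain of ferritin, averaged 2090 ± 153 CPM in ENT-sham and 2220 ± 274 CPM in ENT-BDL pigs (SD, n = 12 and 10) and 3160 to 3420 CPM in the means of the 4 PN groups. It rose by 0.60 and 0.71 in sham and by 0.59 and 0.54 in BDL pigs on SLE and MLE (adjusted p 2.34e-07, 1.27e-08, 1.68e-06 and 3.63e-05, edgeR), and in sham pigs the diets did not overlap. NCOA4, the receptor that delivers ferritin for breakdown, fell by 0.66 and 0.52 in sham and by 0.73 and 0.74 in BDL pigs (adjusted p 2.18e-08, 1.31e-05, 1.13e-08 and 6.79e-08, edgeR). Of the 10 genes of storage and IRP control, FTH1 was the only one higher in each comparison, and 3, 2, 1 and 1 were lower, where 13.6%, 10.4%, 9.17% and 8.27% of all genes were lower and 13.9%, 10.7%, 10.4% and 8.53% higher.

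Of 9 genes of iron import, reduction and oxidation, 4 were higher and 1 lower on SLE in sham as in BDL pigs, and 1 and 1 on MLE in sham and 2 and 2 on MLE in BDL pigs. Of all genes, 13.9% were higher and 13.6% lower on SLE in sham and 10.4% and 9.17% in BDL pigs, and 10.7% and 10.4% on MLE in sham and 8.53% and 8.27% in BDL pigs. SLC39A8, a transporter of zinc, manganese and iron, fell in all 4 by 0.48 to 0.65 on the log2 scale. SLC39A14, the main route for iron not bound to transferrin, rose in BDL pigs by 0.80 on SLE (adjusted p = 1.14e-07, edgeR). CP, the ferroxidase ceruloplasmin, fell after BDL by 1.54 on ENT and 1.45 on MLE (adjusted p = 0.00284 and 0.0153, edgeR). Between diets CP passed as higher for SLE against ENT in BDL pigs, by 1.63. STEAP2, a ferrireductase, rose after BDL by 2.31 on ENT and 1.77 on MLE (adjusted p = 6.63e-06 and 0.00156, edgeR). Between diets STEAP2 passed as higher for SLE against ENT in sham pigs, by 1.81.

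Of 11 heme genes, 1 was higher and 3 lower on SLE and 1 and 1 on MLE in sham pigs, and 2 and 1 on SLE and 2 and 1 on MLE in BDL pigs. The shares of all genes were 13.9% and 13.6% for SLE and 10.7% and 10.4% for MLE in sham pigs, and 10.4% and 9.17% and 8.53% and 8.27% in BDL pigs. FLVCR1, described as a heme exporter, rose in all 4 by 0.62 to 0.79. ALAS1, the first enzyme of heme synthesis in hepatocytes, fell after BDL on ENT by 0.91 (adjusted p = 0.00445, edgeR) and was higher on PN in BDL pigs by 1.94 on SLE and 1.22 on MLE (adjusted p = 4.27e-08 and 0.000419, edgeR).

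Within groups, the relation of HAMP to the other members could be read only in ENT pigs, since in the 4 PN groups HAMP rested on 0 to 51 counts, and the relations computed there are not read. Over the 16 relations in ENT-sham and ENT-BDL pigs (8 members, n = 12 and 10), Pearson's r of log2 CPM ran from -0.418 to 0.403 and Spearman's rho from -0.503 to 0.382. By the permutation test 0 of the 16 were at an unadjusted p under 0.05 by either measure, and none passed after adjustment over all 48 relations computed in the 6 groups (lowest adjusted p = 0.729 by r and 0.775 by rho). At these numbers of pigs that does not show that the levels were unrelated. Without the 2 pigs of each group farthest from its median HAMP, r ran from -0.592 (SLC40A1) to 0.657 (TFR2), both in ENT-sham pigs, with no test.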

How the data were processed

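Liver RNA was sequenced from 60 pigs, and the deposited table holds raw read counts per gene, which the authors made, per the labels and methods, with HISAT2 2.0.5, StringTie 1.3.3 and featureCounts 1.5.0-p3 on Sscrofa11.1. The strand setting of the counting is not given in the sources used here. The 24 features without a gene name (0.008% to 0.041% of counts) were left out. Groups came from the sample labels.

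Counts were filtered with filterByExpr on the 6 groups, scaled by TMM and fitted in edgeR 4.0.16 (glmQLFit, robust; R 4.3.3) with 1 coefficient per group over all 60 pigs. Tests used glmQLFTest with Benjamini-Hochberg adjustment over 16210 genes, and a gene passed at an adjusted p under 0.05. Intervals are 95% normal intervals from the SE, which was taken as the log2 difference over the square root of F. The study's own tool, DESeq2 (1.42.0 here), was an alternative, beside RLE scaling, other filters, a replicate block, a block on the identifier number, the compared groups alone and leaving out pigs. The fit was tested on simulated counts. Correlations used log2 CPM with a prior count of 2 and a permutation test (exact below 10 pigs, otherwise 100000 resamples).

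The members and all gene lists were chosen with earlier results of these data known. Named were the 9 members, at most 4 genes per list and comparison, from those past the test with the largest changes and an average log2 CPM that reached 1 (EPO did not), and the genes most and least like HAMP. CRP was left out of its list because 2 features carry the symbol.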

Additional observations from a re-analysis of the deposited data

Results flagged for a closer look

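In groups of 4 to 10 pigs, 1 pig stood outside the range of the others in 3 of 36 tests of a member in a group by Dixon's criterion, which chance meets in about 1 in 20. HAMP in SLE-sham replicate 6 was 2.53 CPM, against 0.0538 to 1.02 CPM in the other SLE-sham pigs. BMP6 was 8.60 CPM in MLE-sham replicate 7 (others 2.81 to 5.47) and 8.94 CPM in MLE-BDL replicate 6 (others 2.72 to 4.98).

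Of all genes, 2.33% passed the edgeR interaction test of the BDL effect for SLE against ENT and 0.265% for MLE against SLE. Among the IL-6 and STAT3 genes 5 of 11 were higher in the first and 4 of 11 lower in the second. Of the genes named above, 6 outside the set passed. For SLE against ENT the difference between the BDL effects was 1.93 for HP (adjusted p = 0.00293), 5.12 for EPO (adjusted p = 0.000408, and 4.32 without SLE-BDL replicate 5), 2.07 for CP (adjusted p = 0.0224), 0.69 for SLC39A14 (adjusted p = 0.00427) and 1.53 for ALAS1 (adjusted p = 0.00547). For these 5 genes the log2 change after BDL, passed or not, was below 0 on ENT and above 0 on SLE. For STEAP2 the difference between the BDL effects was -1.83 (adjusted p = 0.0356), a call that 12 of the 60 fits with 1 pig left out did not make. It was also lost with no filter, the replicate block or its groups alone. CP missed the test with the identifier number as a block. For MLE against SLE it was -2.32 for HP (adjusted p = 0.00388).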

How the results depend on the processing

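All 21 member values that passed kept their direction and their side of the test in each of 10 other settings and in every fit with 1 pig left out. Among 54 that did not pass (of the 8 members between groups, and of SLC40A1 in the interactions), 10 of 540 recomputed values passed: TMPRSS6 after BDL on MLE with the identifier number as a block (-0.33) or its groups alone (-0.33), SLC40A1 after BDL with that block (-0.31 on ENT, -0.40 on SLE), HFE for SLE against ENT in BDL pigs with that block (-0.29), and SLC40A1 for MLE against SLE in BDL pigs (DESeq2, -0.47) and in interactions (MLE against ENT: block -0.66, groups alone -0.72; MLE against SLE: DESeq2 -0.72, without SLE-sham replicate 9 -0.79). So the number of members past the test became 1 in place of 0 for BDL on SLE with the identifier block, for MLE against SLE in BDL pigs by DESeq2, and for the interactions of MLE with ENT and with SLE under the settings just named. It became 4 in place of 3 for BDL on ENT (identifier block) and on MLE (identifier block or groups alone), and 3 in place of 2 for SLE against ENT in BDL pigs (identifier block). With over 2-fold also asked, counts fell to 0 and 1 for BDL on ENT and MLE and to 2 and 2 for SLE and MLE against ENT in sham pigs and 2 for MLE against ENT in BDL pigs. Leaving out 1 pig gave 2 to 3 members for SLE against ENT in BDL pigs, and 0 to 1 for MLE against SLE in BDL pigs and for its interaction. No other count moved with a pig left out. Nothing states that replicate numbers mark a litter or day, and over 82 pairs of same-numbered pigs the correlation of deviations from group means ran from -0.231 to 0.381 (median -0.0112, 20 over 0.1), so they were not taken to pair pigs. With the replicate number as a block, BDL changed 3 members on ENT, and no member's call changed.

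Of these 540 values, 18 near 0 changed sign, between -0.14 and 0.07: BMP6 for BDL on ENT (0.01, replicate block) and for MLE against SLE in sham pigs (0.07, without SLE-sham replicate 10); BMP2 for BDL on ENT (0.00 with no filter or 10 counts in every pig, 0.04 with the replicate block, 0.01 without the near-matching pair), for MLE against SLE (-0.14 in BDL, -0.04 in sham pigs) and MLE against ENT in sham pigs (-0.03) with the identifier block, and for SLE against ENT in sham pigs (0.00, without SLE-sham replicate 9); TMPRSS6 for MLE against ENT in BDL pigs (0.00, -0.02 and -0.02); SLC40A1 in the SLE against ENT interaction (0.00, -0.01, -0.07 and -0.09); and HFE for MLE against SLE in sham pigs (0.03). HAMP after BDL lay, with 1 pig left out, between -0.89 and -0.62 on ENT, 0.38 and 1.07 on MLE, and -0.48 and 0.74 on SLE, where it was -0.01 without SLE-sham replicate 4 and -0.48 without SLE-BDL replicate 7; none of these passed. HAMP was dropped where 10 counts were asked of every pig. Of 780 recomputed values of passing calls of the other named genes, 36 missed the test and none changed sign.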

Other observations

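Over the 60 pigs, the genes whose log2 CPM followed HAMP most closely among 11780 named protein-coding genes were TDO2, which starts tryptophan breakdown (Pearson r = 0.88), MPDZ (0.87), MYOM1 (0.86), ATOH8 (0.85) and DPP4, the peptidase that degrades incretins (0.85). The most opposite were the metallothioneins MT1D (-0.90) and MT3 (-0.86), whose family members can share reads, and NANOS1 (-0.86). These values follow the split between diets for which HAMP was picked. With group means subtracted they lay between -0.12 and 0.18. Of the 60 pigs, 38 were PN pigs with HAMP at 0 to 51 counts, so values near 0 there say little. MT1D averaged 3610 CPM in ENT-sham and 9100 CPM in SLE-sham pigs, and MT3 48.6 and 427 CPM. By the same measure BMP6 was at 0.77 and TFRC at -0.86 with HAMP over the 60 pigs. With group means subtracted they were at -0.10 and 0.00, under the same limit.

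Of 5 cholangiocyte markers, 4 were higher after BDL on ENT, 1 on SLE and 5 on MLE. Of 6 stellate cell markers, 0, 2 and 2 were higher. Of all genes, 8.89%, 2.97% and 7.85% were higher. None of either list was at 3 counts or fewer in every pig of a group.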
